A study of Mus musculus with 6 samples.

Results

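The ATP-binding cassette (ABC) transporters were followed in macrophages carrying GRdim, a glucocorticoid receptor mutation that impairs receptor dimerization. Genes were taken by their symbol, from subfamilies A to G, with the cholesterol exporters Abca1 and Abcg1 left out. This gave 48 of the 23235 genes in the authors' deposited table, and 26 of the 48 were abundant enough for the authors' test. The measurement was RNA sequencing of primary macrophages grown from mouse bone marrow. There were 6 samples in 2 groups of 3: LPS+Dex, cells homozygous for GRdim given 1 µM dexamethasone (Dex, a synthetic glucocorticoid) overnight and then lipopolysaccharide (LPS) for 6 h, and LPS, cells of the same genotype given LPS alone for 6 h. Every sample therefore carried the mutation and received LPS. Wild-type and unstimulated macrophages were not analysed here, so no change below can be ascribed to the mutation or set against a resting state. Whether the 3 samples in each group were grown from different mice or cultures is not stated.

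ABC proteins bind ATP in a pair of cassette domains and use it to move a substrate across a membrane. Subfamily A moves lipids, subfamilies B, C and G hold drug, bile, lipid and conjugate exporters together with transporters of mitochondria and lysosomes, and subfamily D serves peroxisomes and lysosomes. Proteins of subfamilies E and F have the cassettes but no membrane part and act in translation. In macrophages the family is known for lipid efflux and for the release of leukotriene C4, prostaglandins, cyclic nucleotides and glutathione conjugates.

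All levels, test statistics and q values below come from the authors' deposited table. For each gene it holds 1 FPKM value per group (fragments mapped to the gene, corrected for transcript length and library size) and no value per sample, so a level carries no SD of its own. Log2 fold changes are of LPS+Dex over LPS. The implied standard error (SE) is the log2 fold change divided by the authors' test statistic, without its sign, and the way that statistic uses the spread between samples was not given in the sources used here. A gene was called when the authors' q, a p-value adjusted over the 11755 tested genes, was under 0.05. These errors may be technical, and without counts the sequencing depth is unknown.

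The ABC genes moved in both directions with Dex. Of the tested ABC genes in the authors' deposited table, 7 were higher in LPS+Dex, 6 were lower and the other 13 were not called. The exporter genes Abcc1, Abcb1a, Abcc4, Abcg2 and Abcb1b and the mitochondrial gene Abcb10 fell. Abcc5, Abcc10, Abcc3, the lipid transporter genes Abca3 and Abca7, and Abcd4 were among those that rose. The 4 translation genes of subfamilies E and F were not called. The share called, 13 of 26 or 50.0%, was near that of all tested genes, 42.9%. The higher calls were 26.9% of tested members against a background of 17.7%, and the lower calls were 23.1% against 25.2%. Among the 22 members with at least 1 FPKM in a group, 12 were called, or 54.5%, against 47.6% of all such genes. Shares this near the background are not a result about the family, and the results lie in the single genes.

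The changes were small, as was the family's median. The median log2 fold change of the 26 tested members was 0.042, against −0.011 over all tested genes with both values above 0. Called members changed by a median of 1.24-fold, and called genes of any kind by 1.26-fold. A change of at least 1.5-fold was seen in 2 called members, Abcc1 and Abcb1a, or 7.69% of those tested, against a background of 10.5%. Summed over tested members, the level was 240.5 FPKM in LPS+Dex and 231.8 FPKM in LPS, so rises and falls nearly cancelled in the sum. In RNA from a whole culture, fewer cells that express a gene and less RNA per cell cannot be told apart.

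**Figure D1:**
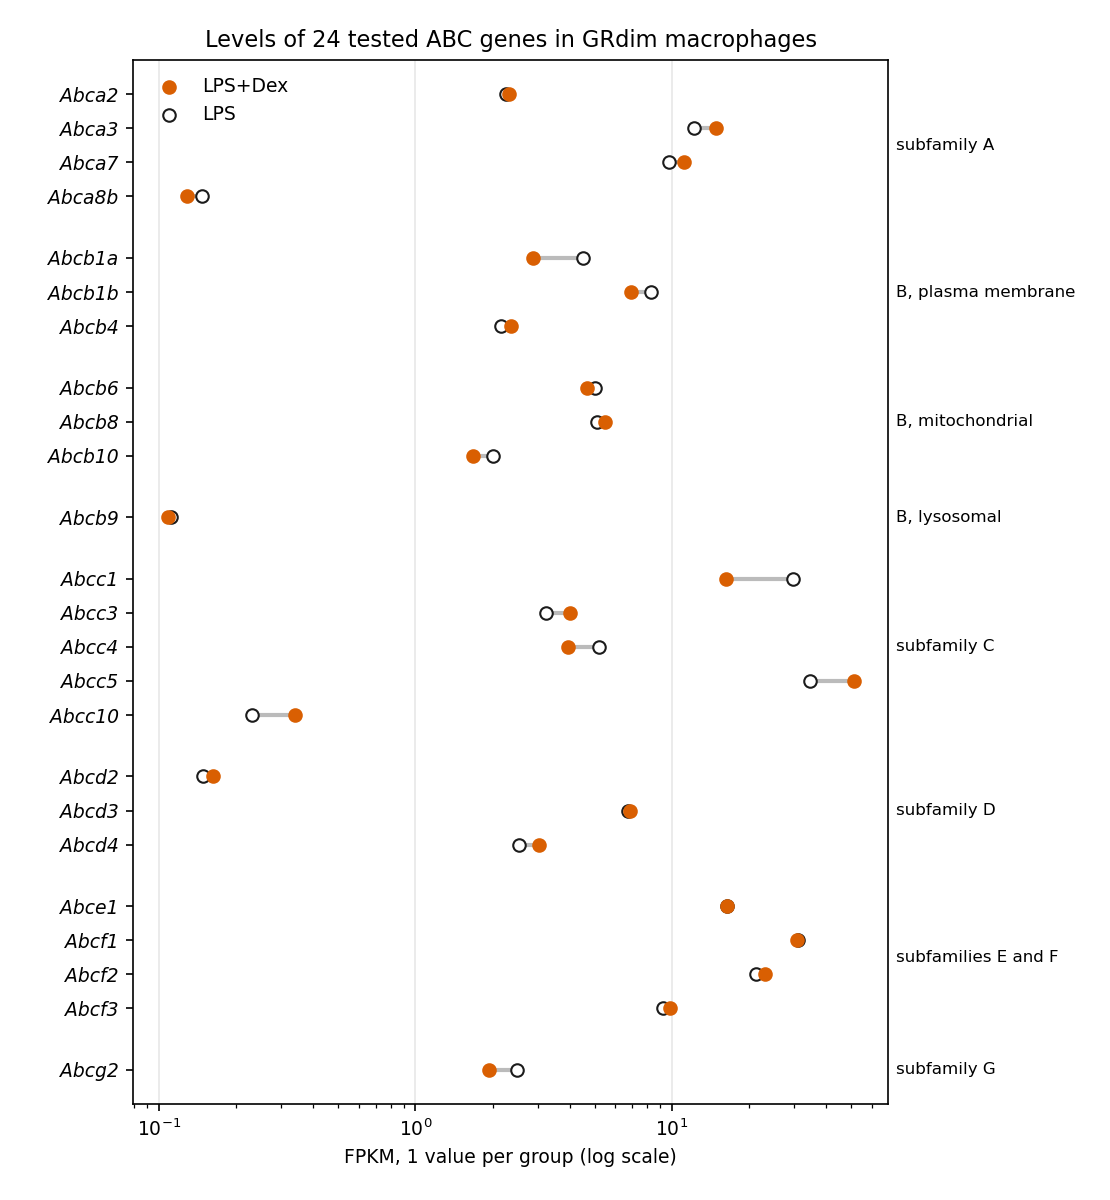
Levels of 24 of the 26 tested ABC genes on a log axis of FPKM, with filled points for LPS+Dex and open points for LPS, 1 value per group, arranged by subfamily and place in the cell. Abcc5 stands highest in both groups, the filled point of Abcc1 lies far left of its open point, and the points of Abce1 and Abcf1 overlie each other.

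Cell identity was checked on marker lists in the authors' deposited table. Of 8 macrophage markers, 7 were tested, between 29.3 and 1948 FPKM in LPS+Dex and between 30.1 and 1753 FPKM in LPS, with 3 higher, 1 lower and 3 not called. Markers of dendritic cells were lower: 3 of 6 were tested and all of those fell, among them Xcr1 at 0.114 FPKM in LPS+Dex and 0.529 FPKM in LPS, and the list summed to 20.7 FPKM in LPS+Dex and 29.9 FPKM in LPS, most of it Itgax, a gene that macrophages also express. Neutrophil markers summed to 44.3 FPKM in LPS+Dex and 32.7 FPKM in LPS, with 3 of 6 tested, 1 of them higher and 2 lower. Most of the sum was S100a8, which rose to 40.9 FPKM in LPS+Dex, against 27.5 FPKM in LPS. Ngp fell to 2.09 FPKM in LPS+Dex, against 3.11 FPKM in LPS, and Camp to 1.16 FPKM, against 1.85 FPKM. Elane and Mpo reached at most 0.0955 FPKM. Stromal markers summed to 2.70 FPKM in LPS+Dex and 2.36 FPKM in LPS, nearly all of it Pdgfrb and Dcn, the only 2 of 7 that were tested. Dcn rose to 0.703 FPKM in LPS+Dex, against 0.389 FPKM in LPS (log2 0.85), Pdgfrb was not called at 1.97 FPKM in LPS+Dex and 1.93 FPKM in LPS, and the collagen genes Col1a1, Col1a2 and Col3a1 reached at most 0.00874 FPKM. Markers of T and NK cells summed to 0.361 FPKM in LPS+Dex and 0.509 FPKM in LPS, with 1 of 6 tested and that one lower, and Ncr1 and Nkg7 at 0. Markers of B cells summed to 0.149 FPKM in LPS+Dex and 0.145 FPKM in LPS, with none called, and 5 erythroid markers, none tested, to 0.0138 FPKM in LPS+Dex and 0.0146 FPKM in LPS. The part of the dendritic, neutrophil, stromal and T cell markers in the ABC results was not tested.

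The multidrug resistance proteins of subfamily C held the largest change in each direction among tested members, and their 5 tested genes were each called in the authors' deposited table, where 42.9% of all tested genes were. Abcc1 encodes MRP1, which exports leukotriene C4 and glutathione conjugates (chromosome 16, 14361651 to 14474971, mm9). It fell by 45.4%, with 16.2 FPKM in LPS+Dex and 29.7 FPKM in LPS (log2 −0.87, implied SE 0.048, q listed as 0). Of the 11745 tested genes with both values above 0, 380 had a lower log2 fold change. Abcc5 encodes MRP5, an exporter of cyclic nucleotides (chromosome 16, 20331377 to 20426467). It stood at 51.1 FPKM in LPS+Dex and 34.6 FPKM in LPS (log2 0.56, implied SE 0.068, q = 2.7e-15). On the FPKM scale, which is per length of transcript, Abcc5 was the most abundant member in both groups. Its level was 3.15 times that of Abcc1 in LPS+Dex and 1.16 times in LPS. The sum of the pair hardly differed, at 67.4 FPKM in LPS+Dex and 64.3 FPKM in LPS. Because the pair joins the largest fall and the largest rise among tested members, its changes offset each other by that choice. A link between the changes was not tested.

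The other called genes of subfamily C also went both ways. Abcc4 encodes MRP4, which exports prostaglandins and cyclic nucleotides (chromosome 14, 118881914 to 119105441). The authors' deposited table gives 3.93 FPKM in LPS+Dex and 5.21 FPKM in LPS (log2 −0.41, implied SE 0.061, q = 2.3e-10). Abcc3 encodes MRP3, an exporter of glucuronide conjugates (chromosome 11, 94204609 to 94254290). It stood at 4.001 FPKM in LPS+Dex and 3.22 FPKM in LPS (log2 0.31, implied SE 0.063, q = 4.5e-06). Abcc4 and Abcc3 thus changed places in the order of levels, Abcc4 being the lower in LPS+Dex by a narrow margin. Abcc10, which encodes MRP7, stood at only 0.339 FPKM in LPS+Dex and 0.231 FPKM in LPS (log2 0.55, implied SE 0.20, q = 0.0158). Its call was weak: it was lost once the trend of fold change on expression level was removed (log2 0.43, recomputed q = 0.0711), and on the log2(FPKM + 1) scale, which tempers scarce genes, the value was 0.12. Abcc2 and Abcc12 were too low for a test, at most 0.0166 FPKM, and Abcc6 was listed at 0 in both groups.

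P-glycoprotein, the drug efflux pump of the plasma membrane, is encoded in the mouse by the neighbouring genes Abcb1a and Abcb1b, and both fell in the authors' deposited table. Abcb1a (chromosome 5, 8660092 to 8748570) stood at 2.88 FPKM in LPS+Dex and 4.50 FPKM in LPS (log2 −0.64, implied SE 0.063, q listed as 0). Abcb1b (chromosome 5, 8798147 to 8866314) stood at 6.90 FPKM in LPS+Dex and 8.31 FPKM in LPS (log2 −0.27, implied SE 0.055, q = 5.4e-06). The 95% intervals of these log2 fold changes, −0.77 to −0.52 for Abcb1a and −0.38 to −0.16 for Abcb1b, did not overlap. The genes share part of their sequence. Of the windows of a read's length in the annotated coding transcripts, 7.58% for Abcb1a and 8.38% for Abcb1b also occur in a transcript of another gene. The handling of reads that match both was not given in the sources used here, which makes the split between the genes uncertain. Their summed level was 9.78 FPKM in LPS+Dex and 12.8 FPKM in LPS. The next gene along, Abcb4 (chromosome 5, 8893721 to 8959226), starts 27.4 kb after Abcb1b and encodes the phosphatidylcholine transporter of bile. It was not called at 2.36 FPKM in LPS+Dex and 2.16 FPKM in LPS (log2 0.13, 95% interval −0.024 to 0.28, q = 0.183). Abcb5 was listed at 0 in both groups, and the bile salt pump gene Abcb11 did not exceed 0.00364 FPKM.

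The start regions of Abcb1b and Abcb4 are shown because these neighbours differed in their calls, and those of Abcc4 and Abcc5 because they fell and rose within a single subfamily. Each is the 250 bases before the RefSeq start, 5′ to 3′ on the gene's strand, in the GRCm38.p6 build, which is not the build of the expression table. Capitals mark matches to any of 6 motifs searched on both strands: AGAACA (an arm of the glucocorticoid receptor element), CACGTG and its longer form GTCACGTG (E-boxes), TGANTCA (AP-1), TGACNNNGC (antioxidant response element core) and the NF-kB motif.
Abcb1b, chr5:8797897-8798146, plus strand: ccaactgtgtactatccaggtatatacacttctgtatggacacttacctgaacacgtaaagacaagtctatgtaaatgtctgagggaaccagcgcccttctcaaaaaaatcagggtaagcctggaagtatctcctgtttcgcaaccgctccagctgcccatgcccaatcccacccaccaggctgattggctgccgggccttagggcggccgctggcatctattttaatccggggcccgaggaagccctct
Abcb4, chr5:8893471-8893720, plus strand: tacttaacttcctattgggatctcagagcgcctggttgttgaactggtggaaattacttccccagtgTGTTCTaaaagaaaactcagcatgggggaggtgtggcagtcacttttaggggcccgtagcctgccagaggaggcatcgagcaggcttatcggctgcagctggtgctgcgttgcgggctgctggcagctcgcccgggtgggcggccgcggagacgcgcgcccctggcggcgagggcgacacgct
Abcc4, chr14:118706220-118706469, minus strand: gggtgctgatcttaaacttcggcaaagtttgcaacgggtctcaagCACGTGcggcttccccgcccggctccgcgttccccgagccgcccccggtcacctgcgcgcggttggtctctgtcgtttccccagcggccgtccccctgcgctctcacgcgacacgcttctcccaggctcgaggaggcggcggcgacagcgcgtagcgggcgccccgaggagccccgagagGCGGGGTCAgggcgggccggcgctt
Abcc5, chr16:20426395-20426644, minus strand: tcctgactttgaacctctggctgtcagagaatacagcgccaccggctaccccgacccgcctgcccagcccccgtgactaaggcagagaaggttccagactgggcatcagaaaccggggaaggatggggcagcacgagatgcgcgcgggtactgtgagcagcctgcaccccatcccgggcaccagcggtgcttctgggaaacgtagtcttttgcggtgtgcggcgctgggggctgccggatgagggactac

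Abcb4 holds AGAACA 183 bases before its start, and Abcc4 holds CACGTG 205 bases and TGACNNNGC 25 bases before it. The windows of Abcb1b and Abcc5 hold none of the letters searched. RefSeq starts were at hand for 19 of the 26 tested members, several with more than 1 start. AGAACA occurred in 2 of the 19, Abcb4 and Abcc4, in Abcc4 only at another start 29274 bases from the nearest coding transcript start in GENCODE M21, or 10.5%, against 18.2% of 27025 genes. CACGTG occurred in 2, Abcc4 and Abcf1, against 6.86% of genes. TGACNNNGC occurred in 2, Abcc4 and Abcc10, against 11.5%. TGANTCA, the NF-kB motif and GTCACGTG occurred in 0 of 19, against 7.82%, 1.65% and 2.11% of genes. Members with a match were thus both called (Abcc4 and Abcc10) and not called (Abcb4 and Abcf1). The RefSeq start of Abcb1a lies 92986 bases from the nearest coding transcript start in GENCODE M21, so its window is not shown. It is still counted in the shares above and the medians below. Of all 25 RefSeq starts of these members, 19 lay within 100 bases of a coding transcript start. The windows of tested members had a median of 61.6% G and C and 17 CG pairs, against 52.4% and 6 over all 32851 windows. These windows and the 27025 genes above include genes that were not tested. Shares over tested genes alone were not computed, so these contrasts cannot be ascribed to the ABC family.

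**Figure D2:**
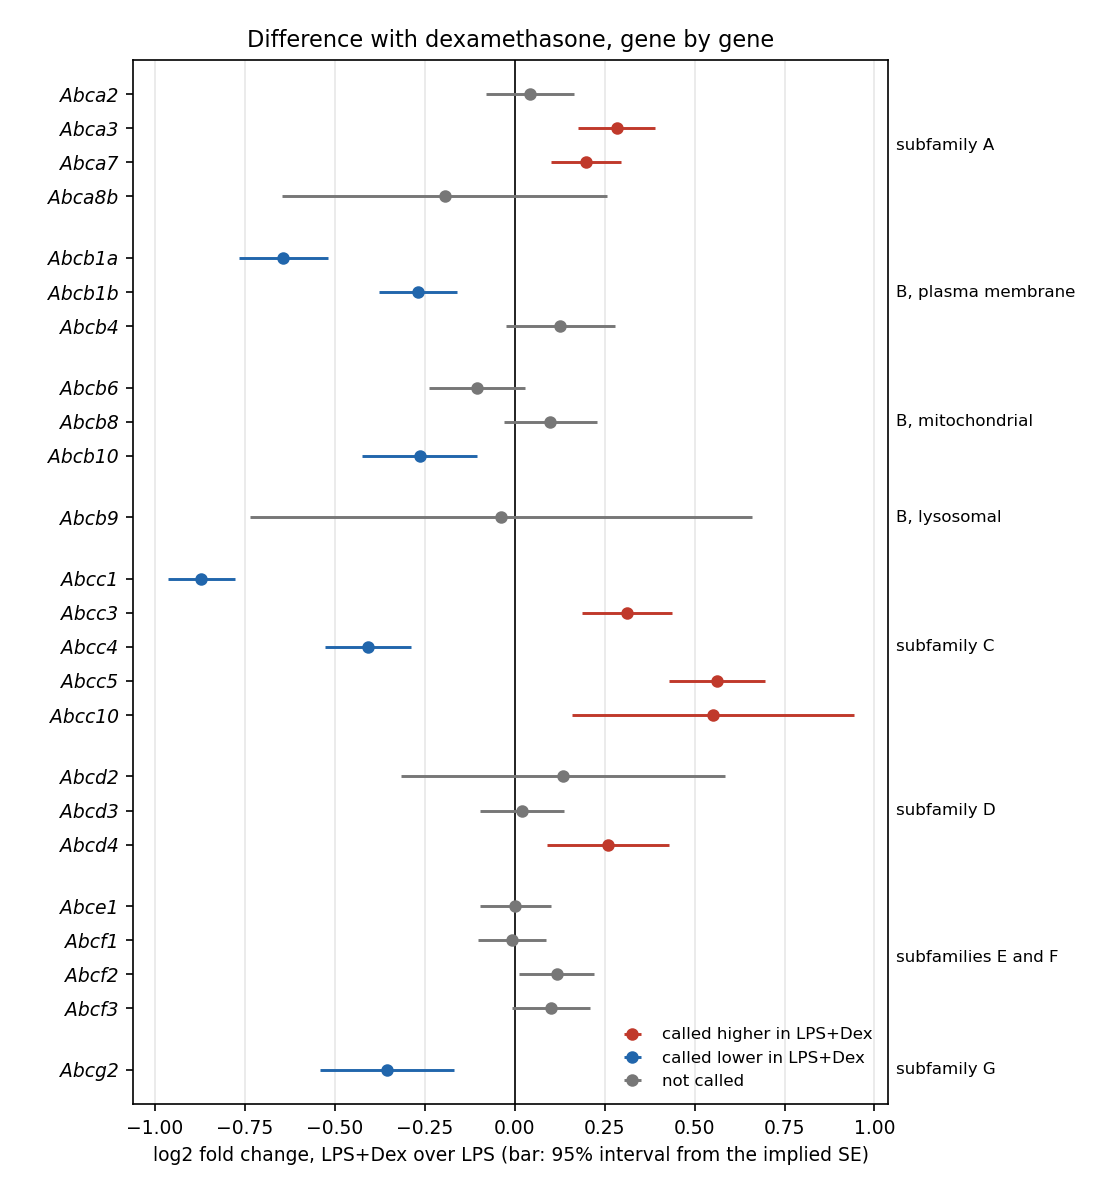
Log2 fold change of LPS+Dex over LPS for 24 of the 26 tested ABC genes, with bars for the 95% interval from the implied SE and colours for the authors' calls. Subfamily C spans the whole range, with Abcc1 at −0.87 and Abcc5 at 0.56, while Abce1 and Abcf1 sit at 0.0017 and −0.0081 with short bars.

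Among mitochondrial transporters of subfamily B, Abcb10 was lower and Abcb6 and Abcb8 were not called. Abcb10 is an inner membrane transporter needed for heme synthesis in red cell precursors (chromosome 8, 126476359 to 126507022). In the authors' deposited table it stood at 1.67 FPKM in LPS+Dex and 2.01 FPKM in LPS (log2 −0.26, implied SE 0.081, q = 0.00366). On the log2(FPKM + 1) scale that change was −0.17. Abcb8 was not called at 5.48 FPKM in LPS+Dex and 5.11 FPKM in LPS (95% interval −0.030 to 0.23). The porphyrin transporter gene Abcb6 was not called at 4.67 FPKM in LPS+Dex and 5.03 FPKM in LPS (95% interval −0.24 to 0.028). In GENCODE M21, 84.3% of its windows of a read's length also occur in a transcript of the gene Gm29253, so its level may include reads of that gene. The lysosomal peptide transporter gene Abcb9 was barely detected, at 0.108 FPKM in LPS+Dex and 0.111 FPKM in LPS, and its interval of −0.74 to 0.66 was too wide to tell a change of 1.5-fold in either direction from none.

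Of 4 tested lipid transporters of subfamily A in the authors' deposited table, 2 rose and the other 2 were not called. The share called higher over all tested genes was 17.7%, and a count out of 4 is too small to set against it. Abca3, known for loading phospholipid into the lamellar bodies of lung surfactant cells (chromosome 17, 24488991 to 24551458), stood at 14.8 FPKM in LPS+Dex and 12.2 FPKM in LPS (log2 0.28, implied SE 0.054, q = 9.4e-07). Abca7, which moves phospholipids and takes part in phagocytosis (chromosome 10, 79460360 to 79478317), stood at 11.1 FPKM in LPS+Dex and 9.71 FPKM in LPS (log2 0.20, implied SE 0.050, q = 0.00024). It had the smallest change of all called members. Abca2, a lipid transporter of late endosomes and lysosomes, was not called at 2.33 FPKM in LPS+Dex and 2.26 FPKM in LPS (95% interval −0.079 to 0.17). Abca8b was scarce, at 0.128 FPKM in LPS+Dex and 0.147 FPKM in LPS (log2 −0.19, 95% interval −0.65 to 0.26). The listed spans of Abca2, Abca3, Abcc10 and Abcf1 each overlap 1 other row of the table, none above 0.0535 FPKM, and no other tested member's span overlaps one.

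Abca1 and Abcg1, which export cholesterol and are not counted among the 48, both fell in the authors' deposited table, in contrast to Abca3 and Abca7. Abca1 stood at 6.15 FPKM in LPS+Dex and 9.74 FPKM in LPS (log2 −0.66, implied SE 0.049). Abcg1 stood at 9.41 FPKM in LPS+Dex and 31.0 FPKM in LPS (log2 −1.72, implied SE 0.048). The fall of Abcg1 exceeded that of any tested member. Among ABC proteins with other names, Tap1, a subunit of the antigen peptide transporter, fell to 192 FPKM in LPS+Dex, against 222.5 FPKM in LPS (log2 −0.21, implied SE 0.055). Its partner Tap2 was not called at 133.1 FPKM in LPS+Dex and 141 FPKM in LPS (q = 0.182), and the chloride channel gene Cftr was listed at 0 in both groups.

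Subfamily G beyond Abcg1 was represented by Abcg2, an exporter of drugs, urate and porphyrins (chromosome 6, 58546666 to 58642445). The authors' deposited table gives 1.94 FPKM in LPS+Dex and 2.48 FPKM in LPS (log2 −0.36, implied SE 0.095, q = 0.00070), and −0.24 on the log2(FPKM + 1) scale. Abcg3 and Abcg4 did not exceed 0.0353 FPKM in either group. The intestinal and liver sterol pair Abcg5 and Abcg8, which lie 0.207 kb apart on chromosome 17, stood at 0.00157 and 0.000942 FPKM in LPS+Dex, against a listing of 0 for both in LPS.

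In subfamily D, Abcd4 rose in the authors' deposited table, and Abcd2 and Abcd3 were not called. Abcd4, which works with Lmbrd1 to release cobalamin from lysosomes (chromosome 12, 85943481 to 85958416), stood at 3.03 FPKM in LPS+Dex and 2.53 FPKM in LPS (log2 0.26, implied SE 0.086, q = 0.00768). Abcd3, the abundant peroxisomal protein PMP70, was not called at 6.85 FPKM in LPS+Dex and 6.75 FPKM in LPS (95% interval −0.096 to 0.14). Abcd2, a peroxisomal importer of fatty acids, was scarce at 0.162 FPKM in LPS+Dex and 0.148 FPKM in LPS (95% interval −0.32 to 0.58). A change of Abcd3 the size of that in Abcd4 lies outside the interval of Abcd3, whereas the interval of Abcd2 contains it.

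The soluble ATPases of translation were abundant and close in level between the groups in the authors' deposited table. Abce1, which splits ribosomes after termination, stood at 16.4 FPKM in LPS+Dex and 16.3 FPKM in LPS (log2 0.0017, 95% interval −0.097 to 0.10). Abcf1, a partner of initiation factor eIF2, stood at 30.7 FPKM in LPS+Dex and 30.9 FPKM in LPS (log2 −0.0081, 95% interval −0.10 to 0.087). Changes beyond about 0.10 on the log2 scale lie outside these intervals. Abcf3 stood at 9.86 FPKM in LPS+Dex and 9.19 FPKM in LPS (95% interval −0.00885 to 0.21, q = 0.140). Abcf2 missed the threshold narrowly at 23.1 FPKM in LPS+Dex and 21.3 FPKM in LPS (log2 0.12, implied SE 0.053, q = 0.0645). It was called higher when fold changes were shifted so that the median over genes of 1 FPKM or more was 0 (log2 0.14, recomputed q = 0.0214) or freed of the expression trend (log2 0.17, recomputed q = 0.0054). Together these 4 genes made up 33.3% of the summed level of tested members in LPS+Dex and 33.5% in LPS.

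**Figure D3:**
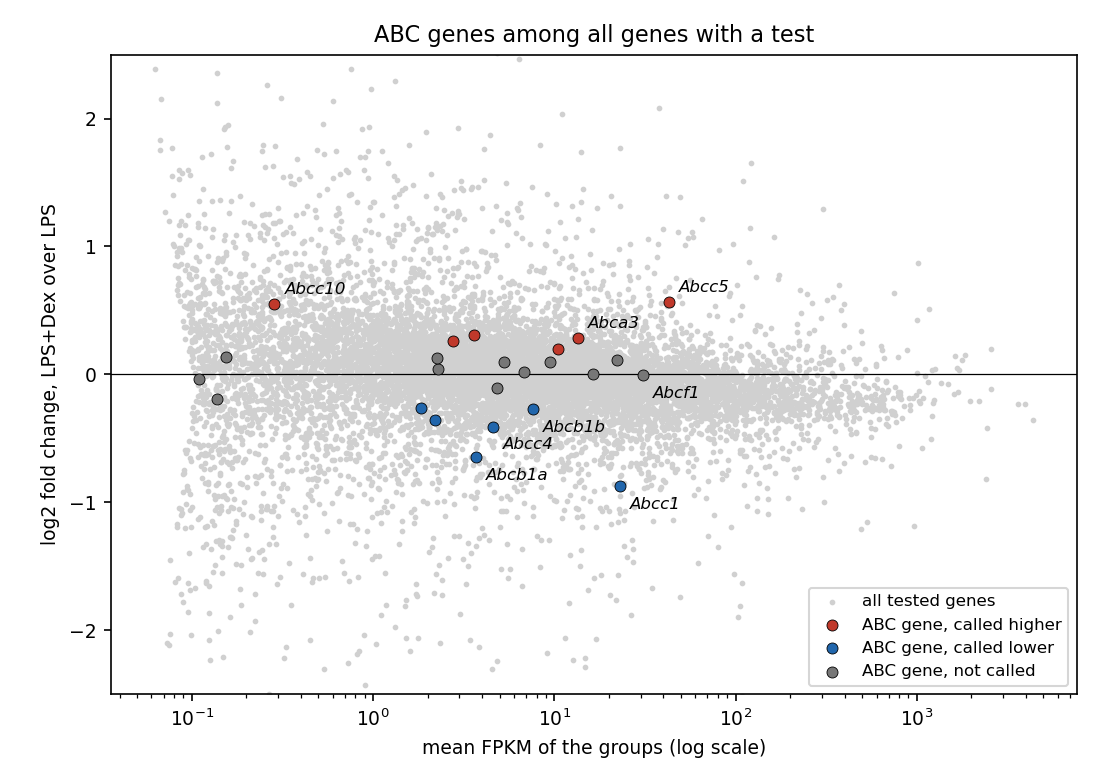
Log2 fold change of LPS+Dex over LPS against mean FPKM on a log axis, with grey points for all tested genes and coloured points for 24 of the 26 tested ABC genes. The vertical axis ends at 2.5 in each direction and leaves out 35 genes; the ABC genes lie within the cloud, with Abcc1 below and Abcc5 above most genes of like level.

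The other 22 members had no test and did not exceed 0.0849 FPKM, the level of Abca5 in LPS+Dex, in the authors' deposited table. The scarcest tested member, Abcb9, reached 0.111 FPKM. Of the 22, 13 were above 0 in both groups, 4 in LPS+Dex alone (Abca14, Abcc9, Abcg5 and Abcg8), 1 in LPS alone (Abca12), and 4 were listed at 0 in both (Abca15, Abca16, Abcb5 and Abcc6). The authors' status marks these genes as not tested. Lyz2, an abundant macrophage gene also listed at 0 in both groups, has another status, which marks too many fragments for an estimate. Abca13 stood at 0.0136 FPKM in LPS+Dex and 0.0276 FPKM in LPS, and Abca9 at 0.0165 FPKM in LPS+Dex and 0.0398 FPKM in LPS. Other untested genes above 0 in both groups were Abca4, Abca6, Abca8a, Abca17, Abcb11, Abcc2, Abcc8, Abcc12, Abcg3 and Abcg4, besides Abca5. Several untested genes lie in tandem: Abca8b, Abca8a, Abca9, Abca6 and Abca5 follow each other on chromosome 11, and Abca14, Abca15 and Abca16 on chromosome 7. Abca8b was the only tested gene of these runs. Together the 22 reached 0.189 FPKM in LPS+Dex and 0.241 FPKM in LPS.

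Genes that work with the transporters were counted from lists chosen by function. In the authors' deposited table, 6 of 11 tested genes of glutathione and leukotriene C4 synthesis were lower and 1 was higher, with a median log2 fold change of −0.25. Over all tested genes, 25.2% were lower and 17.7% higher, with a median of −0.011. Glutathione conjugates and leukotriene C4 are among the substrates of MRP1. A link between this list and the fall of Abcc1 was not tested. Gclm, the modifier subunit of the enzyme that limits glutathione synthesis, fell to 21.9 FPKM in LPS+Dex, against 40.5 FPKM in LPS (log2 −0.88, implied SE 0.053). The catalytic subunit gene Gclc fell to 2.95 FPKM in LPS+Dex, against 4.76 FPKM in LPS (log2 −0.69, implied SE 0.070). Gss, Gsr, the cystine transporter gene Slc7a11 and Alox5 (5-lipoxygenase) also fell, with log2 fold changes between −0.74 and −0.17. Alox5ap, which presents arachidonic acid to 5-lipoxygenase, rose to 201 FPKM in LPS+Dex, against 179.6 FPKM in LPS (log2 0.16, implied SE 0.048). Mgst3, a microsomal glutathione transferase gene, was not called at 48.2 FPKM in LPS+Dex and 45.6 FPKM in LPS, and Ltc4s, which encodes leukotriene C4 synthase, was not called at 1.90 FPKM in LPS+Dex and 1.48 FPKM in LPS. These examples beyond the named extremes, Gclc, Gss, Gsr, Slc7a11, Alox5 and Ltc4s, were chosen after their values were seen.

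Lists around the peroxisomal and mitochondrial transporters showed no common direction in the authors' deposited table. The background over all tested genes was 17.7% higher and 25.2% lower. Of 16 genes of peroxisome biogenesis and beta-oxidation, 4 were higher and 3 lower, with a median of 0.0046. The beta-oxidation enzyme gene Ehhadh stood at 0.683 FPKM in LPS+Dex and 0.495 FPKM in LPS (log2 0.47), the oxidase gene Acox3 at 6.70 FPKM in LPS+Dex and 7.95 FPKM in LPS (log2 −0.25), and the thiolase gene Acaa1a was not called at 132.4 FPKM in LPS+Dex and 131.1 FPKM in LPS. Of 10 genes of cobalamin handling, 2 were higher and 1 lower, with a median of 0.068. The cobalamin carrier gene Tcn2 rose to 41.4 FPKM in LPS+Dex, against 23.2 FPKM in LPS (log2 0.84, implied SE 0.061). Mmadhc fell to 45.8 FPKM in LPS+Dex, against 53.5 FPKM in LPS (log2 −0.23). Lmbrd1, the partner of Abcd4, was not called at 11.8 FPKM in LPS+Dex and 11.7 FPKM in LPS.

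Of 11 heme synthesis genes in the authors' deposited table, 4 were higher and 1 lower, with a median of 0.0055. For all tested genes the shares were 17.7% higher and 25.2% lower. Alas1, the first enzyme of the pathway, fell to 27.3 FPKM in LPS+Dex, against 34.04 FPKM in LPS (log2 −0.32, implied SE 0.049). The next enzyme gene, Alad, rose to 6.00 FPKM in LPS+Dex, against 4.57 FPKM in LPS (log2 0.39, implied SE 0.089). Tmem14c, which moves a heme precursor in mitochondria, was not called at 70.1 FPKM in LPS+Dex and 74.1 FPKM in LPS. Of 14 genes of mitochondrial iron-sulfur cluster assembly and iron import, 2 were higher and 2 lower, with a median of 0.020. Slc25a37, which encodes a mitoferrin, an iron importer, rose to 78.7 FPKM in LPS+Dex, against 37.4 FPKM in LPS (log2 1.07, implied SE 0.051), while Abcb10, with which its protein is known to form a complex, fell. Slc25a28, the gene of another mitoferrin, fell to 11.3 FPKM in LPS+Dex, against 12.5 FPKM in LPS (log2 −0.15, q = 0.0418). Slc25a28 was chosen after its value was seen. The assembly factor gene Lyrm4 fell to 1.60 FPKM in LPS+Dex, against 2.07 FPKM in LPS (log2 −0.38), and the chaperone gene Hspa9 was not called at 61.3 FPKM in LPS+Dex and 61.7 FPKM in LPS.

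Of 10 genes of ribosome recycling and termination in the authors' deposited table, 4 were lower and the other 6 were not called, with a median of −0.044. Among all tested genes, 25.2% were lower and 17.7% higher. Denr, whose product removes tRNA from the small ribosomal subunit, fell to 63.7 FPKM in LPS+Dex, against 81.1 FPKM in LPS (log2 −0.35, implied SE 0.048). The termination factor gene Etf1 was not called at 57.6 FPKM in LPS+Dex and 59.5 FPKM in LPS. Of 12 genes of lipid synthesis and lysosomal lipid handling, 4 were higher and 4 lower, with a median of 0.11. The choline kinase gene Chka rose to 4.18 FPKM in LPS+Dex, against 2.46 FPKM in LPS (log2 0.77, implied SE 0.088). The lysosomal lipase gene Lipa fell to 93.3 FPKM in LPS+Dex, against 128.9 FPKM in LPS (log2 −0.47, implied SE 0.052), and Lamp1 was not called at 688 FPKM in LPS+Dex and 628 FPKM in LPS.

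Of 13 tested regulators of ABC genes in the authors' deposited table, 3 were higher and 4 lower, with a median of −0.015. The shares of all tested genes were 17.7% higher and 25.2% lower. Rxra, the nuclear receptor that pairs with the liver X receptors, rose to 3.39 FPKM in LPS+Dex, against 1.80 FPKM in LPS (log2 0.91, implied SE 0.070). Nr1h3, which encodes liver X receptor alpha, rose to 21.0 FPKM in LPS+Dex, against 16.8 FPKM in LPS (log2 0.32, implied SE 0.066). The related genes Nr1h2 and Rxrb were more abundant than Nr1h3 and Rxra, respectively, and were not called. Nr1h2 stood at 30.1 FPKM in LPS+Dex and 28.9 FPKM in LPS (q = 0.409). Rxrb stood at 5.74 FPKM in LPS+Dex and 5.45 FPKM in LPS (q = 0.586). Ahr, the xenobiotic receptor gene, fell to 0.350 FPKM in LPS+Dex, against 1.43 FPKM in LPS (log2 −2.03, implied SE 0.12). Nfe2l2, which encodes NRF2, an activator of glutathione and MRP genes, was not called at 138.6 FPKM in LPS+Dex and 145.7 FPKM in LPS (q = 0.262). Nr1h3, Nr1h2 and Rxrb were chosen after their values were seen.

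**Figure D4:**
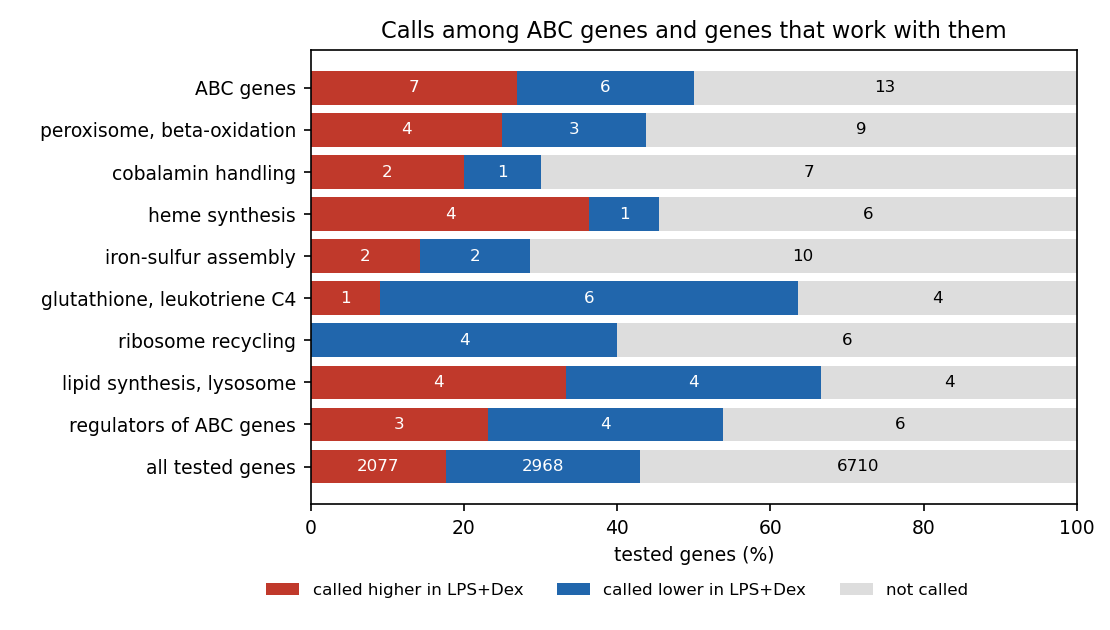
Share of tested genes called higher, called lower and not called in LPS+Dex against LPS, for the ABC genes, 8 lists of genes that work with them, and all tested genes; numbers in the bars are gene counts. The ABC genes divide into 7 higher, 6 lower and 13 not called, and the glutathione and leukotriene list has the most lower calls of the 8 lists, 6 of 11.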

How the data were processed

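Gene expression was measured by RNA sequencing, with libraries described as stranded and paired-end, in 6 samples, 3 per group, grouped by title. Per the file headers, the authors' deposited values are FPKM, 1 per gene and group. Per the submitters' processing notes, CASAVA, TopHat 1.4.1, Cufflinks 2.0.2 and build mm9 were used, with no roles given. The gene annotation, the pooling of replicates and the scaling between libraries were not given in the sources used here. Each row also holds the authors' p-value and q-value per gene, a test statistic (a score with the sign opposite to the fold change, per the file headers and values) and a log2 fold change, which was recomputed here from the FPKM. The authors' test was used as deposited. Calls at q under 0.05 matched the authors' column of significance.

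FPKM depends on the assumed transcript length and on the library total. No replicate could be compared and no count was available, so depth and its precision are unknown. Listed starts count from 0 (listed end minus start equalled the gene length for 7152 of 20601 genes matched by symbol) and are printed 1 higher. Overlapping rows share a listed span.

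Members and lists were chosen with earlier results of these data known, and give no independent support. The rule names all tested members and each list's largest called change in each direction and most abundant uncalled gene; exceptions are stated, and the single values of some genes, though counted, are not reported here. Flvcr1, Eif3j1, Ly6g and Hbb-b1 were not analysed here under these symbols, nor were protein sequences. Promoter windows came from RefSeq (GRCm38.p6; 37 of 48 members matched) and transcripts from GENCODE M21. Alternatives were q under 0.01 or 0.1, Bonferroni adjustment, at least 1 or 5 FPKM, at least 1.5-fold, pseudocounts of 1 or 0.1, centring, and removal of a lowess trend (statsmodels 0.14.6, span 0.3), with Benjamini-Hochberg adjustment over all tested genes. The last steps were tested on simulated data whose noise followed the implied SE. Such data cannot show whether that SE covers the spread between samples. Python 3.11.15, pandas 2.3.3 and scipy 1.17.1 were used.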

Additional observations from a re-analysis of the deposited data

How the results depend on the processing

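The 7 higher and 6 lower calls kept within 1.5 times under q thresholds of 0.01 (6 and 6) and 0.1 (8 and 6), at a minimum of 1 FPKM (6 and 6), centred on the median (8 and 6) and with the expression trend removed (7 and 6). Bonferroni adjustment left 4 higher and 4 lower, a minimum of 5 FPKM left 4 and 3, and a change of at least 1.5-fold left 0 and 2; each of these settings is stricter by construction. Abca7, Abcb10, Abcc10, Abcd4 and Abcg2 lost their calls under Bonferroni adjustment. With the trend removed, Abcf2 entered the higher calls and Abcc10 left them. The members' median log2 fold change stayed between 0.024 and 0.067 under its 6 alternatives. No tested member that was called changed sign under centring, trend removal or log2(FPKM + 1), but none could have. Adding 1 to both values keeps the sign of a change. The trend removed from tested members lay between −0.094 and 0.146, and the smallest called change was 0.199. Centring moved all values by 0.025. On the log2(FPKM + 1) scale, 6 members, each of them called, moved toward 0 by at least their implied SE. These were Abcb1a (−0.50), Abcc4 (−0.33), Abcc3 (0.24), Abcg2 (−0.24), Abcb10 (−0.17) and Abcc10 (0.12). The other 20 tested members moved by less. The replicate block and leaving out replicates were not run. No paired analysis was possible because the table gives 1 value per group and none per sample. Depth is unknown, and the members without a test did not exceed 0.0849 FPKM.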
